A study of Homo sapiens with 2 samples.

Results

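The 33 human genes of the Mediator complex were examined for intervals called in a ChIP-seq experiment on RFX6, a DNA-binding regulator of the RFX family. They were chosen by name from the protein-coding genes of RefSeq (GRCh38.p14), as symbols made of MED and a digit plus CDK8, CDK19 and CCNC, out of 20037 protein-coding genes in all. MHCC-97H cells, a hepatocellular carcinoma line, overexpressed RFX6 with an HA tag from a plasmid, and chromatin was precipitated with an anti-HA antibody to find where the tagged protein lies on the genome. The series holds 1 such ChIP library and 1 input library of the same line, with no replicate and no ChIP from cells without the tag, and the labels do not say whether the input cells carried the plasmid. The data are a single list of called intervals with a score each, so what follows describes this list and has no replicate error. Depth is unknown, and a gene without an interval is one where none was called.

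Mediator is a large assembly that carries signals from transcription factors bound at enhancers and promoters to RNA polymerase II. Its head and middle contact the polymerase, its tail receives many activators, and a separable kinase module of CDK8 or CDK19 with cyclin C, MED12 and MED13 docks on and off the core. Nearly every gene that RNA polymerase II reads depends on it, in liver cells as elsewhere.

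An interval lay within 1 kb of a gene end at 11 of the 33 Mediator genes (33.3%, 95% Wilson interval 19.8 to 50.4), where 15.9% of all protein-coding genes had one. These were MED17 and MED22 of the head, MED10, MED19 and MED26 of the middle, MED16 and MED24 of the tail, and CCNC, CDK19, MED13 and MED13L of the kinase module. With intervals of a score of at least 30 alone, 7 members were left (21.2%), against 9.78% of all protein-coding genes. Counting gene bodies too added MED12L and gave 12 of 33 (36.4%, interval 22.2 to 53.4), against 19.6% of all protein-coding genes. The remaining 21 had none. The Wilson intervals cover the counting of genes only, and the genes are not replicates.

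The intervals sat at starts. Of the 25 members whose start and strand could be taken from the RefSeq promoter table, 9 carried an interval within 1 kb of it (36.0%, interval 20.2 to 55.5), against 15.5% of all genes with a known start. At the far end there were 0 of 25, which allows a share of up to 13.3% by the Wilson method, and 1.28% of all genes had an interval there. For MED13, MED14, MED21, MED22, MED28, MED30, MED6 and MED8 the start was not given.

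The promoters below are shown because the interval reached into them, so that the called bases within them can be read directly. They are the 6 with the highest scores among the members whose interval overlaps the RefSeq window from 250 bases before to 50 bases from the start, in GRCh38, written 5′ to 3′ along the gene. Capitals mark the bases inside the called interval. The parts of each interval beyond this window were not read, so at MED16 the capitals show 28 bases of an interval of 200 bp. Positions are counted from the first base of the gene, which is 0, and are negative before it.
MED13L (chr12:116277644-116277943, minus strand): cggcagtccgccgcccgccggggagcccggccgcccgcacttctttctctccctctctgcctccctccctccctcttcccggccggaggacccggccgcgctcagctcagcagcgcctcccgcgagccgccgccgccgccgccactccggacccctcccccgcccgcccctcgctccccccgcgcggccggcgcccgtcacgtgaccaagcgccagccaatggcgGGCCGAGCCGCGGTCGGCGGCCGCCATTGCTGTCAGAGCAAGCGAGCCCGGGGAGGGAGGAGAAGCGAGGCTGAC
MED24 (chr17:40054359-40054658, minus strand): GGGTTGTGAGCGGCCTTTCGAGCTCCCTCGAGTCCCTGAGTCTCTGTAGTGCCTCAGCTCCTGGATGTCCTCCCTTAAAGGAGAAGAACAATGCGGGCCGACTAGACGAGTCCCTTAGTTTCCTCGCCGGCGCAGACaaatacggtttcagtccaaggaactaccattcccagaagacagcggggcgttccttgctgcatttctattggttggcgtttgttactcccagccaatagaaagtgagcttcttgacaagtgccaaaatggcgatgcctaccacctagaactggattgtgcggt
CCNC (chr6:99568765-99569064, minus strand): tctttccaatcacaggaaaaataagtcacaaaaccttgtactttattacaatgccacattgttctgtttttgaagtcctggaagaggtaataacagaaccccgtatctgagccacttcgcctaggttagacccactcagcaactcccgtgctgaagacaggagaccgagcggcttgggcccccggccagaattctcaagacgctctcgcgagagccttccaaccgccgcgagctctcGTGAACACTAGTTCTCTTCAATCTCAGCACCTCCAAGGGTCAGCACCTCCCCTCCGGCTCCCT
MED26 (chr19:16628155-16628454, minus strand): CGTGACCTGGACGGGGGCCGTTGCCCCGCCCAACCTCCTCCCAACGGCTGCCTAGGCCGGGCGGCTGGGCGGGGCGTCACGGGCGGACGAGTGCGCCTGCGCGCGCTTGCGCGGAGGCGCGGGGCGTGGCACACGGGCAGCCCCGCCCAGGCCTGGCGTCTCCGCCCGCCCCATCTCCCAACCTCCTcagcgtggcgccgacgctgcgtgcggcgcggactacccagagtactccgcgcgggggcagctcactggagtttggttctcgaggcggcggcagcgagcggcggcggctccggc
MED10 (chr5:6378498-6378797, minus strand): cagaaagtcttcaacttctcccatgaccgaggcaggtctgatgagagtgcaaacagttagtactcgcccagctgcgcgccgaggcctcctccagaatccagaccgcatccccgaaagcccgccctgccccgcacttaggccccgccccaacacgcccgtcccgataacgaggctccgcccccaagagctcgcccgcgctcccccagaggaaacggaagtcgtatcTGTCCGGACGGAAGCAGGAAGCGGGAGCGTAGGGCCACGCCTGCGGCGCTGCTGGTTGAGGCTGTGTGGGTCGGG
MED16 (chr19:893138-893437, minus strand): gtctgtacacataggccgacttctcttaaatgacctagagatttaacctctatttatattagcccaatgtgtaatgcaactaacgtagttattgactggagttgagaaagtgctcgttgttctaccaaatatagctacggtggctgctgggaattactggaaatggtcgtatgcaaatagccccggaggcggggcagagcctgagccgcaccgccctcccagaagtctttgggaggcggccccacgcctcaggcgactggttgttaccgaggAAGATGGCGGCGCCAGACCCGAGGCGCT

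The called part differed between these promoters. In MED13L and MED10 it began 25 bases before the start and covered 75 bases of the window, and in CCNC it began 13 bases before and covered 63. In MED16 only the last 28 bases were covered, as its interval began after the start. MED24 and MED26 were the other way round, with 137 and 187 covered bases that all lay before the start.

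In the head, MED17, a scaffold subunit, had an interval of 294 bp at chr11:93784499-93784792 with a score of 29. It ran from 217 to 510 bases after the start, inside the gene. MED22, a small head subunit, had an interval of 259 bp at chr9:133348290-133348548 with a score of 30, which lay 159 bp outside the gene and within the neighbouring gene RPL7A. RPL7A encodes a protein of the large ribosomal subunit, its start lay 72 bp from the interval and 87 bp from the end of MED22, and so this interval is nearer to RPL7A. The head had 2 of 11 genes with an interval (18.2%, 5.14 to 47.7), and MED6, MED8, MED11, MED18, MED20, MED27, MED28, MED29 and MED30 had none.

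In the middle, MED26, through which Mediator meets elongation factors, had the widest interval of the complex, 593 bp at chr19:16628268-16628860. It ran from position -656 to -64, overlapped the non-coding gene LOC105372296, and stood in the list 4 times with scores of 35, 35, 22 and 22. MED10 had an interval of 372 bp at chr5:6378201-6378572 with a score of 34, running from 25 bases before to 346 after the start. MED19, a subunit of the hook that holds the polymerase, had an interval of 390 bp at chr11:57711802-57712191 with a score of 22, from 24 to 413 bases after its start. It lay 402 bp from the start of TMX2, a thioredoxin-related membrane protein gene that runs the other way from a start 378 bp from that of MED19. The middle had 3 of 10 genes with an interval (30%, 10.8 to 60.3). None was called at MED1, the subunit that binds nuclear receptors, at MED14, which joins the modules, or at MED4, MED7, MED9, MED21 and MED31.

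In the tail, MED24 had an interval of 200 bp at chr17:40054522-40054721 with a score of 38, from position -313 to -114. MED16 was the only member with an interval at its end and another in its body. The first was 200 bp at chr19:892966-893165 with a score of 33, from 22 to 221 bases after the start, and the second was 252 bp at chr19:879155-879406 with a score of 25, lying 13781 bp from the start and 11192 bp from the far end. The tail thus had 2 of 5 genes with an interval (40.0%, 11.8 to 76.9). MED15, which binds the sterol-regulated SREBP factors, MED23 and MED25, both contacts of activators, had none.

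In the kinase module, MED13L, one of the pair of related subunits that tie the kinase to the core, had the highest score of any member interval, 45, over 263 bp at chr12:116277456-116277718. It spanned the start, from 25 bases before to 237 after. CCNC, which encodes cyclin C, had an interval of 208 bp at chr6:99568620-99568827 that was listed 2 times with a score of 37 and ran from 13 bases before to 194 after the start. This interval also overlapped the transcribed pseudogene TSTD3. MED13 had an interval of 200 bp at chr17:62065735-62065934 with a score of 22, lying 457 bp outside the gene. CDK19, a kinase that can take the place of CDK8, had an interval of 278 bp at chr6:110815123-110815400 with the lowest member score, 17. It lay 455 to 732 bases after the outermost of 3 listed CDK19 starts and 69 bp from the nearest of them. The same interval lay inside AMD1, the S-adenosylmethionine decarboxylase gene of polyamine synthesis, 506 bp from the AMD1 start. The module had 4 of 7 genes with an interval at an end (57.1%, 25 to 84.2). MED12L had a 200 bp interval at chr3:151105306-151105505 with a score of 33, lying 19642 bp after the start. With it, 5 of 7 had an interval when bodies count (71.4%, 35.9 to 91.8). That share was 19.6% over all protein-coding genes and 22.9% over those of 50 kb and over. MED12L, MED13, MED13L, CDK8 and CDK19 are long, 123 to 351 kb, where the median protein-coding gene has 24.1 kb.

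The Wilson intervals of the 4 modules overlap one another. Those of the head, middle and tail hold the background share of 15.9%, and that of the kinase module starts at 25. The modules hold few genes and differences among them were not tested, so no order among modules is read. The module names follow general knowledge, with MED27, MED28, MED29 and MED30 set with the head.

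**Figure D1:**
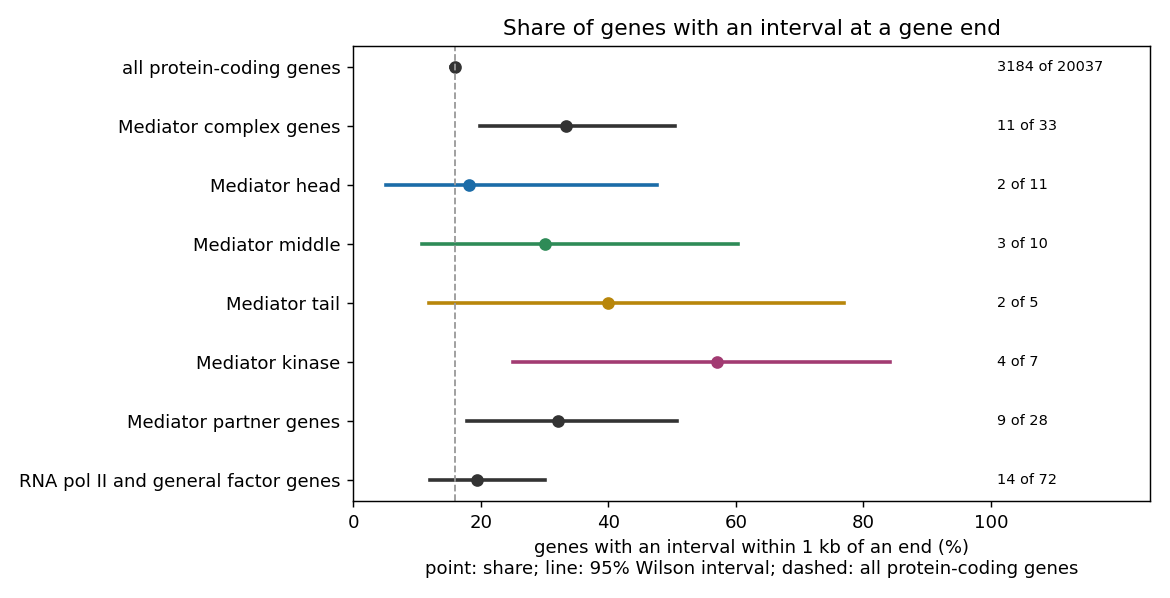
Share of genes with an interval within 1 kb of a gene end, in percent, for all protein-coding genes, the Mediator genes, the 4 modules and the 2 comparison groups; points are shares, lines are 95% Wilson intervals and the dashed line is the share over all protein-coding genes. The Mediator share is 33.3% and that of all protein-coding genes 15.9%, and the kinase module has the highest point at 57.1% with a line from 25 to 84.2.

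The 3 pairs of related kinase module genes were not alike in the list. MED13 and MED13L both had an interval at an end, with scores of 22 and 45. MED12L had an interval in its body and MED12 had none, and CDK19 had an interval whereas the interval nearest to CDK8 was 3445016 bp away. MED12 lies on chromosome X and CDK8 on chromosome 13, both of which held few intervals.

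Chromosomes 4, 13 and X had an interval at an end of 4.24% of their genes, and 0 of the 5 members there (MED28, CDK8, MED4, MED12 and MED14) had one. The Wilson interval of that 0 reaches 43.4%, so these genes could not be told from their neighbours. Away from these chromosomes 11 of 28 members had an interval (39.3%, 23.6 to 57.6), against 17.2% of all protein-coding genes there. The chromosomes were chosen after the data were seen, and leaving them out could only raise the member share. Adding up, for each member, the share of its own chromosome gave 5.17 genes, and 11 were counted. Among genes under 10 kb, 3 of 9 members had an interval at an end and 12.8% of all genes did. For 10 to 50 kb the values were 4 of 14 and 17.3%, and for 50 kb and over 4 of 10 and 17.0%.

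Most member intervals at starts lay just inside the gene. The midpoint lay after the start for 7 of the 9 member intervals at starts (77.8%), with a median position of 121.5 and a range from -360 to 593.5. Over all 2831 pairs of a gene and an interval at its start, 61.2% lay after the start, with a median position of 82.5 and quartiles of -144.5 and 269.5. MED26 and MED24 were the members on the upstream side.

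**Figure D2:**
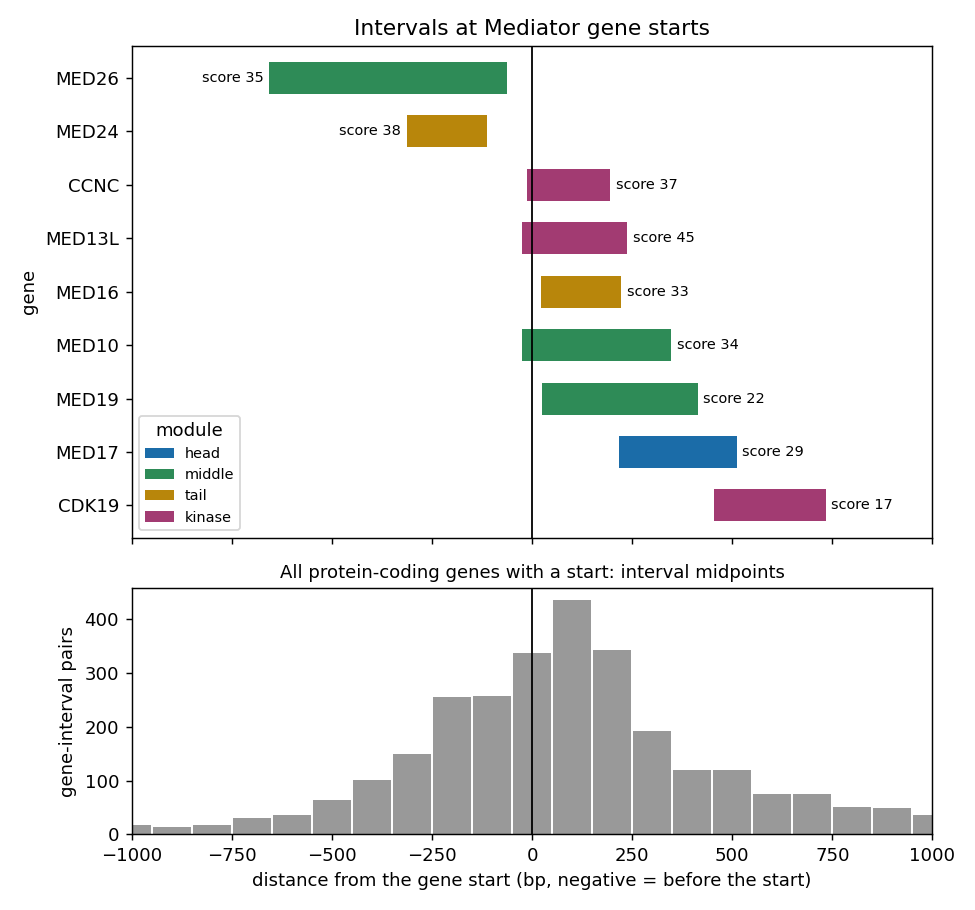
Called intervals at 9 Mediator gene starts as bars coloured by module (upper panel) and the midpoints of intervals at all genes with a known start (lower panel, number of pairs of a gene and an interval), both against the distance from the gene start in bp. The bars of MED26 and MED24 lie before the start, those of CCNC, MED13L and MED10 cross it, and those of MED16, MED19, MED17 and CDK19 lie after it.

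The median score at Mediator gene ends was close to that of all gene-end intervals. It was 33 over 11 intervals, with a range from 17 to 45. The median over all 3142 intervals at protein-coding gene ends was 32, with quartiles of 25 and 43 and a range from 13 to 126. Of the 11, 6 lay above the median of 32 and 1, that of MED13L, in the upper quartile, which held 25.2% of all gene-end intervals. The score has no stated unit and only ranks intervals within this list, where MED13L stood at the 79.9th percentile of gene-end intervals and CDK19 at the 11.3th. Widths were close as well, with a median of 263 bp (200 to 593) against 282 bp. Intervals shared with the end of another protein-coding gene were 3 of 11 (27.3%), those of MED22, MED19 and CDK19, against 19.0% of all gene-end intervals. The nearest protein-coding end was the Mediator gene itself for 10 of the 11, MED22 being the exception.

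**Figure D3:**
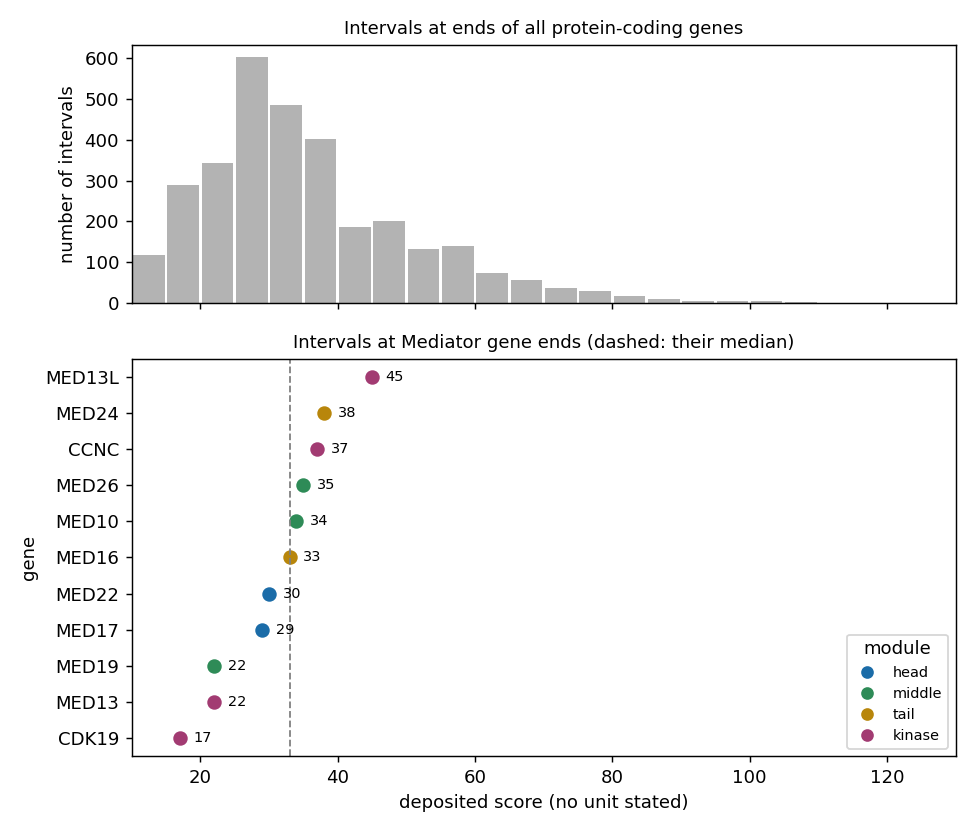
Deposited scores, without a stated unit, of the 3142 intervals at protein-coding gene ends as a histogram (upper panel, number of intervals) and of the 11 intervals at Mediator gene ends as points coloured by module (lower panel, dashed line at their median of 33). The Mediator points run from 17 at CDK19 to 45 at MED13L, within the main body of the histogram.

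Among the 21 members without an interval, the nearest one lay within 25 kb for 5, each time at another gene. It lay 8121 bp from MED21 at TM7SF3, 10245 bp from MED1 at CDK12, 10374 bp from MED25 at PTOV1, 15898 bp from MED8 at ELOVL1 and 20571 bp from MED11 at ARRB2. CDK12 encodes a kinase of the polymerase tail, and its interval had a score of 39. For 12 members the nearest interval was more than 100 kb away, up to 4130 kb for MED28. Just beyond the 1 kb limit, MED22 had another interval 1721 bp from its other end, at SURF6 (score 27), and MED26 one 2011 bp away, at SLC35E1 (score 13).

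**Figure D4:**
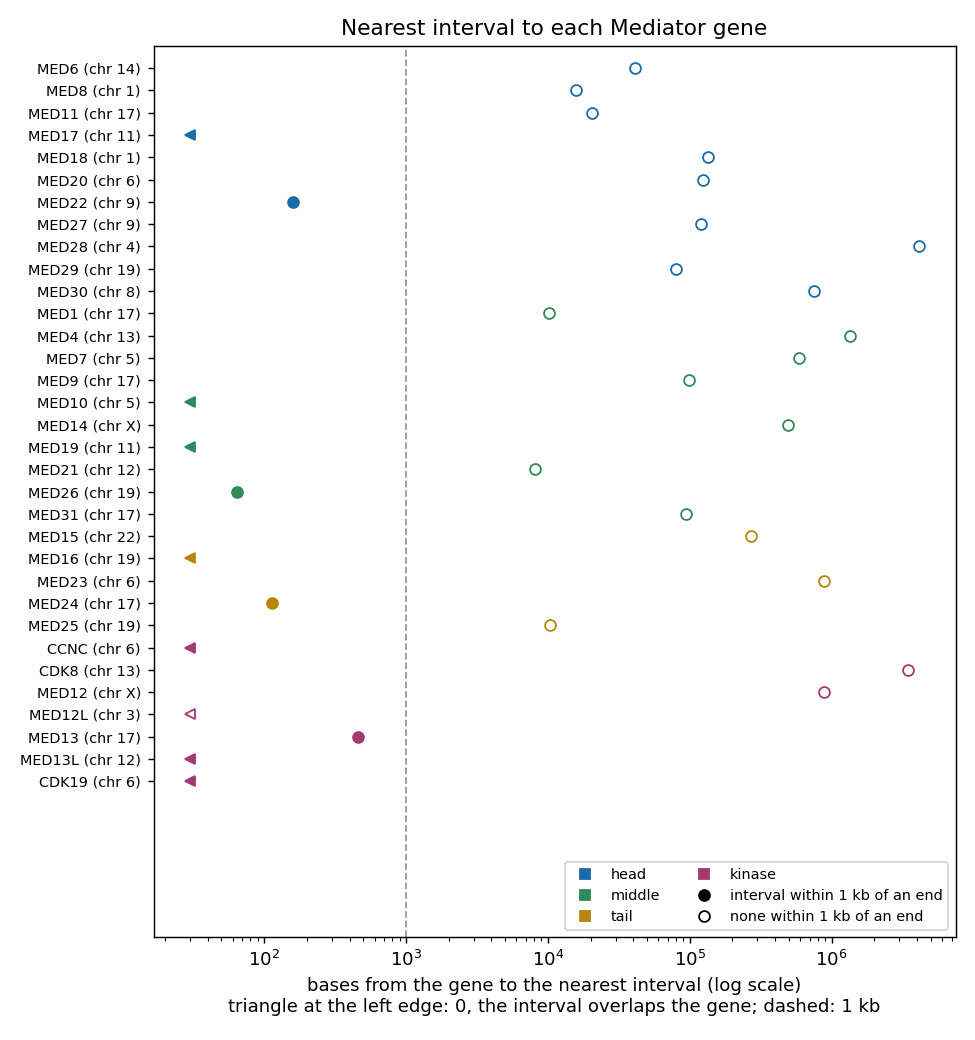
Bases from each of the 33 Mediator genes to the nearest interval, on a log axis, coloured by module; filled symbols have an interval within 1 kb of an end (dashed line), open symbols do not, and triangles at the left edge are genes that the interval overlaps. The open circles begin at 8121 bp for MED21 and reach beyond 1000 kb for MED4, CDK8 and MED28.

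Letters related to the X-box, which the RFX family is known to read, were looked for in the 25 member promoters on both strands. The search covered the promoter windows only, and called bases outside them were not searched. GTTNCC, whose N takes any base, is a rough stand-in for an X-box arm and not its definition, so its counts are not counts of X-boxes. It was found in 15 of 25 (60.0%) and in 6 of the 9 with an interval at the start (CDK19, MED10, MED16, MED17, MED24 and MED26). The shares were 45.8% of all 15842 promoters and 44.8% of the 2585 with an interval at either end of the gene. GTTGCC, which is part of GTTNCC, was in 4 of 25 (16.0%) and 12.5% of all, and among the 9 only in MED26. GTTACC, also part of it, was in 2 of 25 (8%) and 5.88% of all, and among the 9 only in MED16. The GTTNCC matches of CDK19, MED10, MED17 and MED24 were of neither form. GTTNCC followed within 3 bases by GGNAAC was in 0 of 25 and in 0.764% of all. In the printed promoters the GTTGCC of MED26, at positions -231 to -226, and a GTTNCC match of MED24, at -133 to -128, lay inside the called bases. The GTTNCC matches of MED10, at -43 to -38, and of MED16, at 12 to 17, lay outside them. At MED17 and CDK19, which are not printed, the match lay before the start and the interval after it.

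Other promoter letters varied among the members. CCAAT was in 6 of the 9 promoters with an interval (CCNC, CDK19, MED13L, MED16, MED19 and MED24), or 66.7%, and in 4 of the 16 member promoters without one (25%). It was in 36.4% of all promoters and in 36.4% of the 2585 with an interval at either gene end. All CCAAT matches in the promoters of these 6 genes lay outside the called bases. GGGCGG was in 6 of 9 (66.7%), above the 58.4% of all promoters and below the 76.8% of those with an interval. ATGGCG was in 3 of 9 (33.3%; MED13L, MED16 and MED24) and in 6 of the 16 member promoters without an interval (37.5%), against 14.3% of all and 20.5% of those with an interval. CCGGAAG was in 1 of 9 (11.1%; MED17) and 6 of 16 (37.5%), against 14.2% and 20.5%. Of these, CCAAT is the letters of the NF-Y box, GGGCGG of the GC box of Sp factors, CCGGAAG of ETS factors and ATGGCG part of the YY1 motif. A match describes the sequence and was not tested as a site. The 9 promoters were also less rich in G and C than most promoters with an interval, with a median of 53.3% against 68.0% over the 2585 promoters with an interval, whose quartiles were 62.0 and 73.7. MED13L (78.3%) and MED26 (77.3%) lay above the upper quartile, MED10 (65.7%) within, and the other 6 below the lower, down to 47.0% at MED19. The median was also low, 59.2%, in the 16 member promoters without an interval, against 62.7% over all protein-coding promoters.

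For comparison, 2 groups of genes that work beside Mediator were counted, both chosen with earlier results of these data known. Of 28 partner genes listed from general knowledge, 9 had an interval at an end (32.1%, 17.9 to 50.7). They included CDK9 (score 34), CCNT1 (21) and CCNT2 (27), the kinase and cyclins that release paused polymerase, and HEXIM1 (69), their inhibitor. NELFB (37) and NELFCD (45) of the pausing complex NELF, ELL (27) and ELL3 (21) of the elongation factors and CREBBP (13), an acetyltransferase, made up the rest. Of 72 genes of RNA polymerase II and its general factors, taken by symbol, 14 had one (19.4%, 12.0 to 30), namely POLR2A, POLR2C, POLR2D, POLR2H, POLR2I, POLR2L, TBP, TAF11, TAF1D, TAF6L, GTF2F1, GTF2H3, GTF2H4 and GTF2I. The symbol rule goes by name only and so also took in genes such as TAF1D, whose product serves RNA polymerase I. With a score of at least 30 this group fell to 6 of 72 (8.33%), below the 9.78% of all protein-coding genes. It ran from 12 genes with a window of 500 bp to 20 with one of 5 kb. The partner group shrank too, as only CDK9, NELFB, NELFCD and HEXIM1 had a score of at least 30. The Wilson interval of the Mediator genes overlaps those of both groups. Such an overlap is not a test, and a difference between the groups was not tested.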

How the data were processed

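ChIP-seq of HA-tagged RFX6 in MHCC-97H cells was analysed from 1 peak list; no file of the input library was used. The authors called peaks with MACS2 2.1.0.2, as named in the submitters' processing notes, and deposited a list of intervals with a whole-number score whose meaning is not stated. The aligner and the handling of multi-mapped reads are not given in the sources used here. Of 6214 lines, 5022 were distinct and 5019 lay off the mitochondrial genome; repeated lines were counted once with their highest score, and 1 line broken by digit separators was repaired.

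The processing notes name GRCh37, whereas the positions fit GRCh38.p14: 62.6% of intervals lay within 1 kb of a protein-coding gene end of that build, and 8.69% and 9.21% did after a move of 20 kb down and up. Coordinates are 1-based. Gene ends came from a RefSeq table without strand, and starts, strands and promoter sequences from the RefSeq promoter table. An interval counted at a gene end when at least 1 bp lay within 1 kb. The Mediator genes, modules and comparison lists were chosen with earlier results of these data known. By rule, every member, the coding genes sharing a member interval and the comparison genes with an interval were named, and at most 6 promoters were printed, by score. TM7SF3, CDK12, PTOV1, ELOVL1, ARRB2, SURF6, SLC35E1, LOC105372296 and TSTD3 fall outside this rule and were named, after their values were seen, only to place an interval. No p-value was computed, since 1 library has no replicates. Alternatives were other windows, score limits, midpoints, merged intervals, every line counted, the nearest gene end and leaving out chromosomes 4, 13 and X. The counting was tested on simulated intervals. Python 3.11.15, numpy 2.4.6, pandas 2.3.3, scipy 1.17.1 and matplotlib 3.10.9 were used, with Wilson intervals at 95%.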

Additional observations from a re-analysis of the deposited data

How the results depend on the processing

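The share of all protein-coding genes with an interval at an end moved with the window, to 14.2% at 500 bp, 17.4% at 2 kb and 19.9% at 5 kb, while the Mediator count was 11 at each of these windows, with midpoints in place of any overlap and with intervals closer than 1 kb merged. At a score of at least 20 the background was 14.1% and CDK19 was lost, which left 10 members (30.3%). At a score of at least 30 the count fell to 7 members (21.2%), against 9.78% of all protein-coding genes, and the RNA polymerase II group fell to 6 of 72 genes (8.33%). Giving each interval to its nearest gene end left 10 members, without MED22, and a background of 14.0%. Leaving out chromosomes 4, 13 and X, chosen after seeing the data, gave a background of 17.2%. The counts with bodies (8 to 12), at starts (6 to 9) and the median score (30 to 35) kept within 1.5 times or the range of their counting error in every alternative run. Read depth is unknown, so what it limits could not be given. No paired analysis was possible because there is 1 ChIP library and no test between groups.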

Other observations

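RefSeq also lists 24 non-coding genes named after Mediator genes, 20 of them pseudogenes. None of the 24 had an interval within 1 kb, which allows a share of up to 13.8% by the Wilson method at 95%. That bound counts 2 pseudogenes on chromosome Y, MED14P1 and MED13P1, although the list held no interval on that chromosome. Over all 17051 pseudogenes the share was 0.551%, and over all 22577 other non-coding genes 4.06%, so a count of 0 is no result about these genes. The nearest interval to any of the named genes off chromosome Y lay 17030 bp away.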
